A study of Mus musculus with 8 samples.

Results

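The genes described here encode IL-6, the secreted subunits of the IL-12 family, IL-10 and the IL-10 receptor chain that binds it. They are 8 of the 50615 genes in the expression table and were chosen by name as *Il6*, *Il12a*, *Il12b*, *Il23a*, *Il27*, *Ebi3*, *Il10* and *Il10ra*. The libraries hold RNA of bone marrow-derived macrophages (BMDMs) of C57BL/6 mice, grown from marrow for 6 days in M-CSF at 20 ng per mL. *Ncoa6* fl/fl LysM-CRE mice gave the *Ncoa6*-KO cells and *Ncoa6* fl/fl mice the *Ncoa6*-sufficient cells, so both genotypes carried the floxed alleles and only the first carried Cre. In either genotype, cells stayed in medium alone or received LPS at 100 ng per mL for 4 hours and then monosodium urate (MSU) crystals at 200 μg per mL for 2 hours, a sequence called LPS + MSU below. Each of the 4 groups held 2 libraries. The libraries of a group came from different mice. No library had LPS without MSU, so the parts of the 2 stimuli cannot be told apart, and mouse age was not given in the sources used here. The study used this comparison to find which macrophage genes depend on NCOA6, a transcriptional coactivator.

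IL-6 is an inflammatory cytokine that signals through gp130 and STAT3. IL-12 family cytokines are dimers. The p40 chain (*Il12b*) pairs with p35 (*Il12a*) to make IL-12 and with p19 (*Il23a*) to make IL-23, whereas EBI3 (*Ebi3*) pairs with p28 (*Il27*) to make IL-27 and with p35 to make IL-35. IL-10 is made late in the macrophage response to LPS. It acts back on the same cells through IL-10RA, JAK1, TYK2 and STAT3, and it restrains the production of IL-6 and IL-12.

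The deposited totals ran from 25281955 to 33673552 counts per library. *Ncoa6* served as the check of the knockout: its normalized counts (counts scaled to a common library size of 29332189) were 1515 and 1405 in *Ncoa6*-sufficient BMDMs with medium, 784 and 622 in *Ncoa6*-KO BMDMs with medium, 1297 and 1173 in *Ncoa6*-sufficient BMDMs after LPS + MSU, and 563 and 526 in stimulated *Ncoa6*-KO BMDMs. The transcript was lower in every *Ncoa6*-KO library but was not lost. Per the study, the floxed part of *Ncoa6* is an exon, not the whole gene. Counts per gene do not show whether the remaining transcripts hold that exon, so they do not measure how much intact *Ncoa6* was left. None of the 9 macrophage markers was at 0 in any library. Their summed normalized counts were 408700 to 591500 in *Ncoa6*-sufficient and 266600 to 407600 in *Ncoa6*-KO libraries. Most of the genotype gap in these sums lay in *Lyz2* alone. Its mean normalized count with medium was 240995 in *Ncoa6*-sufficient against 119774 in *Ncoa6*-KO libraries. The LPS + MSU means of *Lyz2* were 243832 against 126325, in the same order. With LPS + MSU, 3 of the 9 were called lower in *Ncoa6*-KO BMDMs by the test described below, beside 1.63% of all genes. They were *Fcgr1*, *Itgam* and *Lyz2*, the gene into which LysM-CRE is inserted. With medium alone 3 of the 9 were called lower too, *Fcgr1*, *Lyz2* and *Cd14*, beside 1.3% of all genes. All 9 had a log2 fold change below 0 in either condition, with a median of -0.36 with medium and -0.17 with LPS + MSU, and their part in the results below was not tested. *Csf1r*, the M-CSF receptor, had 44492 and 51396 normalized counts in *Ncoa6*-sufficient against 41875 and 43743 in *Ncoa6*-KO BMDMs after LPS + MSU. Summed markers of dendritic cells ran from 159 to 378 normalized counts over the 8 libraries, those of B cells from 92.8 to 596, those of T and NK cells from 26.6 to 111, those of neutrophils from 363 to 887, those of mast cells and basophils from 22.2 to 592 and those of fibroblasts from 131 to 837. Only *Cd4* of the 7 T and NK cell markers and only *Kit* of the 6 mast cell and basophil markers passed the low-count filter, and those sums are mostly these genes. With LPS + MSU, the B cell sum was 92.8 to 96.4 in *Ncoa6*-sufficient and 172 to 221 in *Ncoa6*-KO libraries, and the dendritic cell sum was 343 to 378 and 243 to 247. The B cell sum followed *Ighm*, the IgM heavy chain gene, which was the 1 B cell marker of 4 tested that was called (61.0 and 67.5 against 207.8 and 163.7 normalized counts). The other 3 had values below 0 and were not called, *Cd79b* having 20.8 and 19.3 against 10.5 and 2.80, and the median of the 4 was -1.12. None of the 6 dendritic cell markers tested was called by edgeR (2 had an unadjusted p under 0.05, beside 3062 of all 17625 genes). In these bulk libraries fewer cells of a type and less RNA per cell cannot be told apart.

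All 8 genes lie apart from each other in the genome (GRCm38, GENCODE annotation). *Il10* lies at chr1:131019845-131024974 on the plus strand, *Il6* at chr5:30013114-30019981 on the plus strand and *Il12b* at chr11:44400063-44414033 on the plus strand. *Il12a* lies at chr3:68690644-68698547 on the plus strand and *Il23a* at chr10:128296139-128298752 on the minus strand. *Il10ra* lies at chr9:45253837-45269149 on the minus strand. *Il27* lies at chr7:126589010-126594941 on the minus strand, and its exons share 103 bases with *Apobr* on the opposite strand, which held 5099 to 9424 counts per library. *Ebi3* lies at chr17:55952640-55957022 on the plus strand, and its exons share 270 bases with the antisense gene *Gm16712*, which held 100 to 1049 counts per library. The libraries were made with a kit that marks strand, but the strand setting of the counting was not stated, so reads in those shared bases may not be assigned with certainty. This bears most on *Il27* in medium, where its own counts were low. *Ebi3* counts were fractional in 8 of the 8 libraries.

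RefSeq promoter windows (build GRCm38.p6) were given for 4 of the 8 genes, and the 250 bases before the start are printed for *Il6*, *Il12b* and *Ebi3*, because *Il6* and *Il12b* behaved most alike of these genes whereas *Ebi3* was already abundant in medium. The windows are chr5:30012864-30013113, chr11:44399813-44400062 and chr17:55952373-55952622, all on the plus strand and written 5′ to 3′. Capitals mark matches, on either strand, to the 10-base NF-κB consensus, the AP-1 motif TGANTCA, the C/EBP motif TTNNGNAA and the Ets core GAGGAA.
Il6: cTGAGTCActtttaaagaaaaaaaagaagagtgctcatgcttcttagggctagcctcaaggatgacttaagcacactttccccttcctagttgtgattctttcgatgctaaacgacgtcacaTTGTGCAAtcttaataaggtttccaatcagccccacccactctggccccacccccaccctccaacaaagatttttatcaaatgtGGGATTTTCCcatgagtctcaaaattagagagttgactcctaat
Il12b: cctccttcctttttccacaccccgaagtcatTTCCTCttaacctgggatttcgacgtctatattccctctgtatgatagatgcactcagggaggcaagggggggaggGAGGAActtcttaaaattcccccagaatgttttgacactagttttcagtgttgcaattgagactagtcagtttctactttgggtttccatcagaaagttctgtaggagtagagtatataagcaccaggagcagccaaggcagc
Ebi3: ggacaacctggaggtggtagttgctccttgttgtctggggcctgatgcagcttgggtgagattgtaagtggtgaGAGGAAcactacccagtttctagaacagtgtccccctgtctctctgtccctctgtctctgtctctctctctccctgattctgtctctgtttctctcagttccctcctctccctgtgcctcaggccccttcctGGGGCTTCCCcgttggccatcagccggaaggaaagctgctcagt
The *Il6* window held GGGATTTTCC of the NF-κB kind 44 bases before the start, TTGTGCAA of the C/EBP kind 128 bases before it and TGAGTCA of the AP-1 kind 249 bases before it. The *Ebi3* window also held an NF-κB match 44 bases before its start, GGGGCTTCCC, and an Ets core match at 176 bases. The *Il12b* window held Ets core matches at 143 and 219 bases. Of 32851 promoter windows of this length, 7.25% held an NF-κB match, 6.75% an AP-1 match, 36.8% a C/EBP match and 23.3% an Ets core match, none of the matches printed here overlapped another, and the 2 *Il12a* windows held no match to these motifs. A match describes letters only.

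The 8 genes differed widely in level before any stimulus. As normalized counts per kb of merged exons, the scale used wherever genes are compared with each other, *Ebi3* was highest in *Ncoa6*-sufficient BMDMs with medium at 1173 ± 116 (SD, n = 2), followed by *Il10ra* at 643 ± 47.3, *Il10* at 27.1 ± 3.02 and *Il27* at 13.6 ± 2.57. None of these 4 overlapped the next in the order. *Il23a*, *Il12b* and *Il6* stood between 0.464 and 0.766 per kb with overlapping libraries, and *Il12a* had 0 counts in both. The *Ncoa6*-KO libraries with medium gave the same first 4 genes in the same order, with *Ebi3* at 990 ± 145 and *Il10ra* at 435 ± 130 per kb. The IL-27 partners were thus unequal in medium, with the *Ebi3* level far above that of *Il27*.

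After LPS + MSU the order changed. *Il27* was highest in *Ncoa6*-sufficient BMDMs at 17829 ± 3718 per kb, then *Ebi3* at 9573 ± 1865, *Il6* at 7888 ± 471, *Il12b* at 7568 ± 627, *Il10ra* at 2297 ± 331 and *Il10* at 1504 ± 717. *Il6* and *Il12b* overlapped each other, and no other neighbours in the order did. *Il12a*, the p35 partner of p40, reached only 40.2 ± 10.7 per kb, and *Il23a*, the p19 partner, 3.38 ± 1.32. The *Ncoa6*-KO libraries gave the same order, from *Il27* at 12986 ± 2687 to *Il10* at 393 ± 81.0, *Il12a* at 39.7 ± 16.6 and *Il23a* at 3.63 ± 1.03 per kb. The SDs here are over 2 libraries each.

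**Figure D1:**
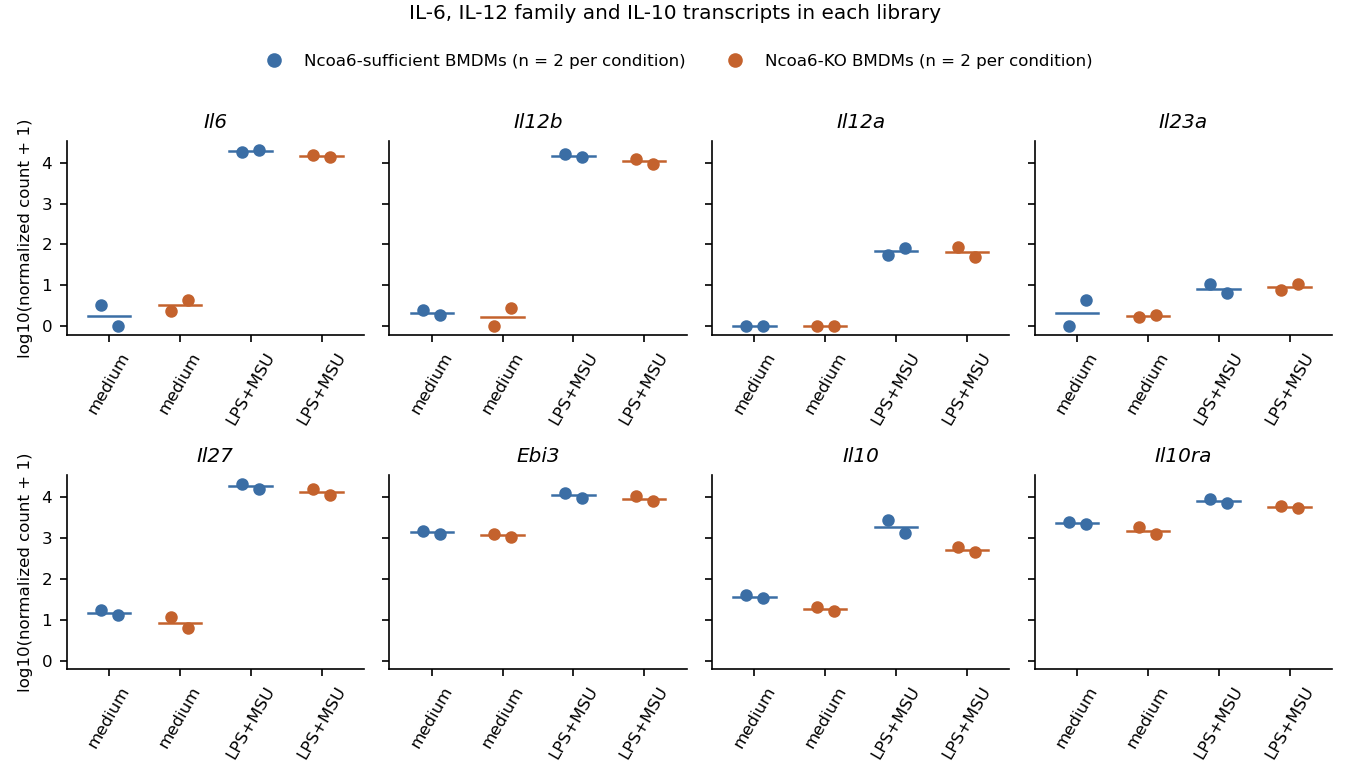
Normalized counts of the 8 genes in each library, on the scale log10(normalized count + 1), with medium alone on the left of each panel and LPS + MSU on the right; points are libraries (2 per group), lines are group means on that scale, blue is *Ncoa6*-sufficient and orange *Ncoa6*-KO. *Il6*, *Il12b* and *Il27* climb by the most, and with LPS + MSU the orange points of *Il10* (589 and 439 normalized counts) sit below the blue ones (2634 and 1306).

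LPS + MSU against medium was tested in each genotype with edgeR's quasi-likelihood test, with p-values adjusted over 17625 genes and a call at an adjusted p under 0.05. *Il27*, the p28 subunit, went from 15.8 and 12.04 normalized counts to 20888 and 15519 in *Ncoa6*-sufficient BMDMs. In *Ncoa6*-KO BMDMs it went from 10.4 and 5.27 to 15199 and 11319. The log2 fold changes were 10.33 (SE 0.29) and 10.65 (SE 0.30), with edgeR adjusted p of 5.44e-10 and 5.89e-10. *Ebi3*, its partner, moved from 1449 and 1258 to 12570 and 9526 in the *Ncoa6*-sufficient and from 1261 and 1024 to 10383 and 7857 in the *Ncoa6*-KO cells. Its log2 fold changes were 3.03 (SE 0.18) and 2.996 (SE 0.18), so from a high start it rose far less than *Il27* in both genotypes.

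*Il6* and *Il12b* were at or near 0 in medium. *Il6* had 3 counts in all in the *Ncoa6*-sufficient libraries with medium and 27734 with LPS + MSU, a ratio of 15929 after scaling (95% counting interval 5450 to 77246). *Il12b*, the p40 subunit, had 3 and 21552 counts there, a ratio of 12378 (4235 to 60029), and 2 and 16110 counts in the *Ncoa6*-KO libraries, a ratio of 14027 (3883 to 115839). *Il12a* had no count in any medium library but 40 and 59 counts in the *Ncoa6*-sufficient and 67 and 34 in the *Ncoa6*-KO libraries with LPS + MSU. It was at least 28.3-fold higher in *Ncoa6*-sufficient and at least 28.6-fold higher in *Ncoa6*-KO BMDMs, against a floor of 3 counts per library. *Il6* in *Ncoa6*-KO BMDMs went from 1.39 and 3.51 to 15528 and 13857 normalized counts (log2 fold change 12.55, SE 0.27). *Il23a* stayed at 9.79 normalized counts or fewer in every library, and its 2 and 12 counts in the *Ncoa6*-KO cells gave a ratio of 10.4 (2.33 to 96.1). These intervals cover counting error only.

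*Il10* was induced in both genotypes, from 38.3 and 32.7 normalized counts to 2634 and 1306 in *Ncoa6*-sufficient and from 19.5 and 14.9 to 589 and 439 in *Ncoa6*-KO BMDMs. Its log2 fold changes were 5.78 (SE 0.35) and 4.88 (SE 0.39), with edgeR adjusted p of 9.27e-08 and 1.07e-06. *Il10ra* rose from 2366 and 2132 to 8853 and 7215 and from 1842 and 1200 to 5878 and 5210, log2 fold changes of 1.84 (SE 0.18) and 1.86 (SE 0.18). In all, 7 of the 8 genes were called higher in *Ncoa6*-sufficient BMDMs (all but *Il23a*, adjusted p = 0.0912) and 8 of 8 in *Ncoa6*-KO BMDMs, where 24.7% and 25.2% of all genes tested were called higher. *Il6*, *Il12a*, *Il12b* and *Il23a* passed the low-count filter only through their LPS + MSU libraries, so for these 4 the counts of calls carry no weight.

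*Il10* was the only gene of this group that edgeR called lower in *Ncoa6*-KO BMDMs with LPS + MSU, although 7 of the 8 had a log2 fold change below 0. With LPS + MSU its normalized counts were 2634 and 1306 in *Ncoa6*-sufficient and 589 and 439 in *Ncoa6*-KO BMDMs. The groups did not overlap, and the *Ncoa6*-sufficient libraries themselves lay far apart. The *Ncoa6*-KO level was 26.2% of the *Ncoa6*-sufficient level (95% interval 17.4% to 39.4%, edgeR adjusted p = 0.00518). Without the higher *Ncoa6*-sufficient library, number 1, the log2 fold change went from -1.94 to -1.35 and the call held. Without *Ncoa6*-KO library 2 it was -1.74 and the call was lost, as it was in a fit of these 4 libraries alone (-1.93, edgeR adjusted p = 0.0578). Fewer of all genes were called in either fit, 0.789% in the fit of the 4 libraries against 3.59% in the main fit. *Fcgr1*, the Fcγ receptor I used as a macrophage marker, was also lower in the same comparison (log2 fold change -1.38, SE 0.31, edgeR adjusted p = 0.0353), and its part in the result was not tested.

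*Il10ra*, the ligand-binding chain of the IL-10 receptor, had 8853 and 7215 normalized counts in *Ncoa6*-sufficient and 5878 and 5210 in *Ncoa6*-KO BMDMs after both stimuli. The groups did not overlap, but the log2 fold change of -0.53 (SE 0.18) was not called by edgeR (adjusted p = 0.136). DESeq2 called it (adjusted p = 0.0254), and edgeR did too when either *Ncoa6*-KO library in medium was left out (adjusted p = 0.0323 and 0.0322). The second chain, *Il10rb*, is in the list of IL-10 family genes described further on.

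*Il6*, *Il12b*, *Il27* and *Ebi3* were nearer to their *Ncoa6*-sufficient levels, a contrast with *Il10* that was not tested as such, and edgeR called none of them. *Il6* had 18343 and 19961 normalized counts in *Ncoa6*-sufficient and 15528 and 13857 in *Ncoa6*-KO BMDMs after stimulation. Its *Ncoa6*-KO level was 76.7% of the *Ncoa6*-sufficient level (62.3% to 94.5%, edgeR adjusted p = 0.172). *Il12b* had 15759 and 14015 against 12366 and 9301, a level of 72.8% (57.8% to 91.6%, edgeR adjusted p = 0.137). For both, the groups did not overlap, and DESeq2 called both (adjusted p = 0.0141 and 0.0257). *Il27* had 20888 and 15519 against 15199 and 11319, and *Ebi3* had 12570 and 9526 against 10383 and 7857. *Il27* did not overlap between the genotypes, whereas *Ebi3* did. The *Ncoa6*-KO levels were 72.8% for *Il27* (56.1% to 94.6%, edgeR adjusted p = 0.193) and 82.6% for *Ebi3* (63.9% to 106.7%, edgeR adjusted p = 0.444).

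For the rare subunits no genotype effect was detectable at this depth. *Il12a* had 55.4 and 81.3 normalized counts in *Ncoa6*-sufficient and 87.6 and 47.6 in *Ncoa6*-KO BMDMs, with a log2 fold change of -0.01 (95% interval -0.90 to 0.88). *Il23a* had 9.70 and 5.51 against 6.53 and 9.79 (log2 fold change 0.10, -1.78 to 1.97). Both pairs of groups overlapped, and the intervals leave room for changes in either direction.

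Across the 8 genes, edgeR thus called 1, *Il10*, lower with LPS + MSU and 0 higher, where 1.63% of all 17625 genes were called lower and 3.59% in either direction. Of the 8, 5 had an unadjusted p under 0.05 by edgeR, beside 3062 of all 17625 genes. DESeq2 called 4, namely *Il10*, *Il6*, *Il10ra* and *Il12b*, all lower, where it called 3.82% of the 13183 genes it tested lower and 6.44% in either direction. By groups that did not overlap, 5 of 8 were lower, beside 22.7% of all genes. The median log2 fold change of the 8 was -0.42, beside 0.0004 over all genes tested.

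**Figure D2:**
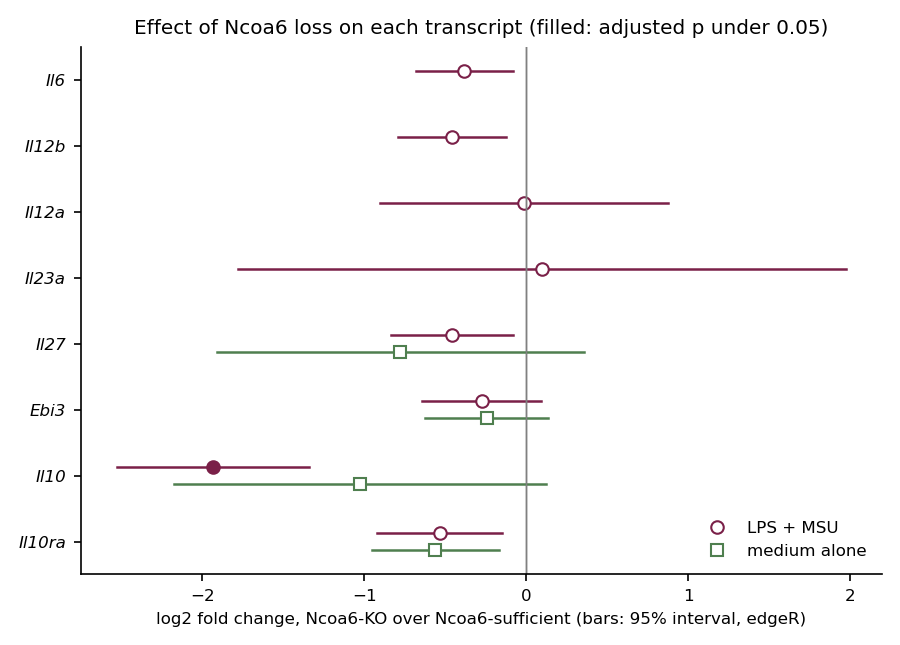
Log2 fold change of each gene, *Ncoa6*-KO over *Ncoa6*-sufficient BMDMs, with LPS + MSU (circles) and medium alone (squares); bars are 95% intervals from the edgeR fit, filled symbols have an adjusted p under 0.05, and no medium value is drawn for *Il6*, *Il12a*, *Il12b* and *Il23a*, which were at or near 0 counts. *Il10* with LPS + MSU (-1.94) is the only filled symbol, while *Il6*, *Il12b*, *Il27*, *Ebi3* and *Il10ra* lie between -0.53 and -0.28.

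With medium alone, 0 of the 8 genes were called by edgeR, where 1.88% of all genes were. *Il6*, *Il12a*, *Il12b* and *Il23a* held 4 counts or fewer in every medium library, so the test could not decide for these genes. By edgeR 1 gene, *Il10ra*, had an unadjusted p under 0.05, beside 2262 of all 17625 genes, and DESeq2 and limma-voom called 0. *Il10* had 38.3 and 32.7 normalized counts in *Ncoa6*-sufficient and 19.5 and 14.9 in *Ncoa6*-KO BMDMs, a log2 fold change of -1.03 (95% interval -2.18 to 0.12, edgeR adjusted p = 0.462). The groups did not overlap, but at these low counts the interval was wide. *Il10ra* had 2366 and 2132 against 1842 and 1200 (log2 fold change -0.56, SE 0.18, edgeR adjusted p = 0.171), and the value moved with the *Ncoa6*-KO library left out: it was -0.91 and called without number 1 (adjusted p = 0.0128) and -0.29 without number 2 (adjusted p = 0.503). *Il27* had 15.8 and 12.04 against 10.4 and 5.27 (-0.78, SE 0.51), and *Ebi3* 1449 and 1258 against 1261 and 1024 (-0.24, SE 0.17). *Il10*, *Il10ra* and *Il27* were lower without overlap, as 24.5% of all genes were, and *Ebi3* overlapped.

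Whether the response to LPS + MSU differed between genotypes was tested as an interaction. None of the 8 genes was called by edgeR, as none of the 17625 was (0%), and DESeq2 and limma-voom called 0 of the 8. None of the 8 had an unadjusted p under 0.05 by edgeR, beside 1045 of the 17625. For *Il6*, *Il12a*, *Il12b* and *Il23a* the test could not decide, since they held 4 counts or fewer in every medium library. For *Il10* the response was smaller in *Ncoa6*-KO BMDMs by a log2 value of -0.91 (95% interval -2.25 to 0.43, edgeR adjusted p = 0.917). Without *Ncoa6*-sufficient library 1 or 2 with LPS + MSU it was -0.36 or -1.37, and it was not called either way. The interval includes no difference in response, so the larger *Il10* effect with LPS + MSU than with medium was not shown to be a difference between conditions.

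The balance of the cytokine transcripts was read as count ratios within a library, which do not depend on library scaling. Per *Il10* count, the *Ncoa6*-sufficient libraries with LPS + MSU held 5.98 and 10.7 *Il12b* counts and the *Ncoa6*-KO libraries 21.0 and 21.2. The *Il6* to *Il10* ratios were 6.96 and 15.3 against 26.3 and 31.5. The *Il27* to *Il10* ratios were 7.93 and 11.9 against 25.8 and 25.8, and the *Ebi3* to *Il10* ratios 4.77 and 7.30 against 17.6 and 17.9. Each ratio was higher in both *Ncoa6*-KO libraries than in either *Ncoa6*-sufficient library, and the 4 ratios share the same *Il10* counts. For *Il12b* to *Il10* the mean log2 ratio was 4.40 ± 0.01 in *Ncoa6*-KO and 3.003 ± 0.60 in *Ncoa6*-sufficient BMDMs (SD, n = 2). With 2 libraries against 2, the smallest p that a two-sided exact permutation test allows is 0.33, so no test was made. With medium, the *Ebi3* to *Il10* ratios were 37.8 and 38.5 in *Ncoa6*-sufficient and 64.8 and 68.6 in *Ncoa6*-KO libraries, and the other ratios rest on few counts.

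**Figure D3:**
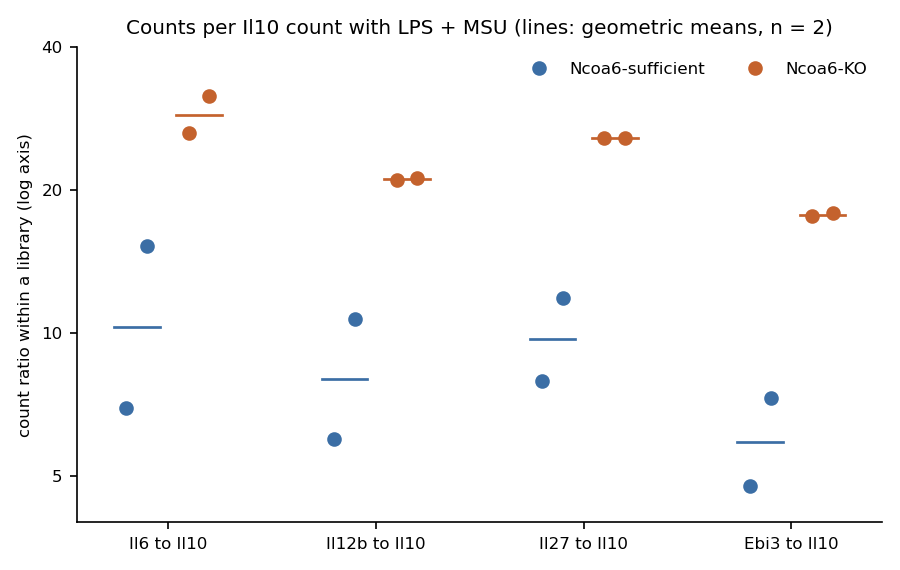
Counts of *Il6*, *Il12b*, *Il27* and *Ebi3* per *Il10* count within each LPS + MSU library, on a log axis; points are libraries (2 per genotype) and lines geometric means. Every *Ncoa6*-KO library (orange) lies above both *Ncoa6*-sufficient libraries (blue), for *Il12b* at 21.0 and 21.2 against 5.98 and 10.7.

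The pathway around these cytokines was followed in 69 other genes, of which 60 passed the filter. The IL-10 and STAT3 target list holds 9 genes that IL-10 is known to induce in macrophages. With LPS + MSU, edgeR called 6 of them lower in *Ncoa6*-KO BMDMs and none higher, beside 1.63% of all genes called lower. Their median log2 fold change over the 9 was -0.82, beside 0.0004 over all genes. The 6 were *Il1rn*, which encodes the IL-1 receptor antagonist, *Il4ra*, which encodes the IL-4 receptor chain, *Nfil3* and *Bcl3*, which encode transcriptional regulators, *Zfp36*, which encodes the mRNA decay factor tristetraprolin, and *Sbno2*, a corepressor of NF-κB targets. The list was chosen with earlier results of these libraries known, and several of its genes also respond to LPS directly. The macrophage markers *Fcgr1* and *Itgam* were lower in the same libraries, and so was *Lyz2*, the gene that carries the LysM-CRE insertion. The part of these markers in this result was not tested.

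With LPS + MSU, *Il1rn* had 63118 and 37978 normalized counts in *Ncoa6*-sufficient and 22727 and 17200 in *Ncoa6*-KO BMDMs. Its log2 fold change was -1.34 (SE 0.24, edgeR adjusted p = 0.0157). *Bcl3* had 1517 and 1106 against 776 and 701 (log2 fold change -0.83, SE 0.16, edgeR adjusted p = 0.0214). In both, the groups did not overlap and *Ncoa6*-sufficient library 1 was the highest. The others were *Il4ra* at -0.91, *Nfil3* at -0.89, *Zfp36* at -0.82 and *Sbno2* at -0.58 (edgeR adjusted p from 0.0152 to 0.0449). Of the 3 not called, *Socs3*, the feedback inhibitor of gp130 signals, had a log2 fold change of -0.61 (SE 0.19, edgeR adjusted p = 0.118), *Ddit4* -0.53 (SE 0.36) and *Etv3* 0.09 (SE 0.14). The count of 6 became 0 in the fit of the 4 LPS + MSU libraries alone, where 0.789% of all genes were called in either direction against 3.59%. It also fell without *Ncoa6*-sufficient library 1 or either *Ncoa6*-KO library with LPS + MSU, and so did calls over all genes. With medium alone 1 of the 9, *Bcl3*, was called (log2 fold change -0.86, SE 0.17, edgeR adjusted p = 0.0363), and it was not called without *Ncoa6*-sufficient library 1 or 2 in medium, *Ncoa6*-KO library 2 in medium or either *Ncoa6*-KO library with LPS + MSU.

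Of 12 genes that act on *Il10* transcription, edgeR called 2 lower and 1 higher with LPS + MSU, where 1.63% and 1.96% of all genes were so called. *Maf* encodes c-MAF, which binds and activates *Il10*. It had 16528 and 13257 normalized counts in *Ncoa6*-sufficient and 8066 and 6581 in *Ncoa6*-KO BMDMs (log2 fold change -1.02, SE 0.14, edgeR adjusted p = 0.00472). With medium it had 8022 and 7385 against 7564 and 6915 (-0.09, SE 0.14). On this normalized scale the *Ncoa6*-KO libraries with LPS + MSU lay near the medium level of either genotype, whereas the *Ncoa6*-sufficient libraries lay well above it. That comparison rests on library scaling factors of 1.23 to 1.29 with medium and 0.766 to 0.829 with LPS + MSU. Unscaled *Maf* counts reached 10881 with medium and 6172 with LPS + MSU in *Ncoa6*-KO libraries, and 10689 and 11930 in *Ncoa6*-sufficient libraries. The difference in response was -0.93 (SE 0.19) and was not called (edgeR adjusted p = 0.337), although DESeq2 called it (adjusted p = 0.000804). *Bhlhe40* encodes a repressor of *Il10*. It had 74.8 and 85.4 normalized counts against 149 and 208 with LPS + MSU (log2 fold change 1.15, SE 0.19, edgeR adjusted p = 0.0104), and 532 and 600 against 807 and 813 with medium (0.52, SE 0.13, edgeR adjusted p = 0.0891). The value with medium was called by limma-voom (adjusted p = 0.0412), with only the libraries compared (0.0345), without a filter, with either replicate block, and without either *Ncoa6*-KO library with LPS + MSU (0.0480 and 0.0478). *Bhlhe40* was therefore higher in every *Ncoa6*-KO library than in either *Ncoa6*-sufficient library of the same condition. *Nfil3* is in this list too. The phosphatase gene *Dusp1* was not called (-0.83, SE 0.21, edgeR adjusted p = 0.0555). The median log2 fold change of the 12 was 0.01. Without *Ncoa6*-KO library 2, *Maf*, *Nfil3* and *Bhlhe40* were not called (adjusted p = 0.0692, 0.291 and 0.102). *Bhlhe40* and *Nfil3* were also not called without *Ncoa6*-sufficient library 1 with LPS + MSU (adjusted p = 0.113 and 0.329) or with the LPS + MSU libraries alone (0.0736 and 0.15), and *Nfil3* not without either *Ncoa6*-sufficient library in medium.

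**Figure D4:**
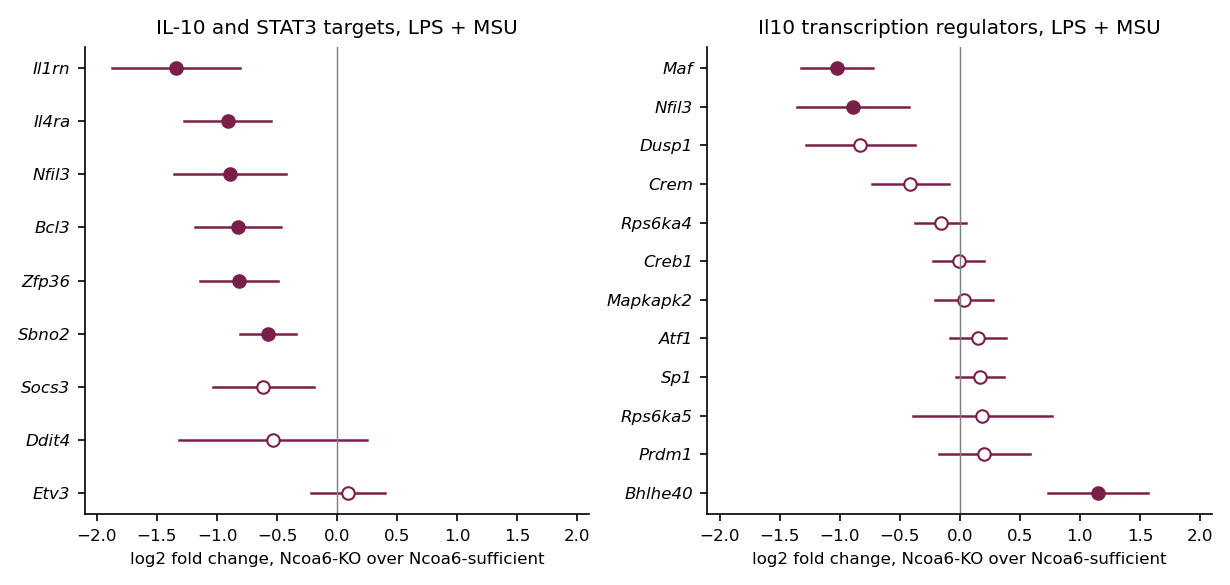
Log2 fold change, *Ncoa6*-KO over *Ncoa6*-sufficient BMDMs with LPS + MSU, of the 9 IL-10 and STAT3 targets (left) and the 12 regulators of *Il10* transcription (right); bars are 95% intervals from the edgeR fit and filled circles have an adjusted p under 0.05. The 6 filled targets lie between -1.34 and -0.58, and among the regulators *Maf* (-1.02) and *Nfil3* (-0.89) lie on the other side of 0 from *Bhlhe40* (1.15).

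Of 17 genes that act on *Il6* and *Il12b* transcription or mRNA decay, 10 had a log2 fold change below 0 with LPS + MSU. By edgeR, 7 of the 17 had an unadjusted p under 0.05, beside 3062 of all 17625 genes. After adjustment 2 were called lower and none higher, beside 1.63% and 1.96% of all genes. They were *Zfp36*, given above, and *Cebpd*, which encodes C/EBPδ, with 3103 and 2647 normalized counts against 1787 and 1559 (log2 fold change -0.78, SE 0.15, edgeR adjusted p = 0.0205). *Cebpd* was not called without *Ncoa6*-sufficient library 1 or without either *Ncoa6*-KO library. *Irf8*, an activator of *Il12b*, had 8885 and 5113 against 4181 and 2551 (-1.06, SE 0.26, edgeR adjusted p = 0.0528), and *Nfkbiz*, which encodes the IκBζ cofactor of *Il6* and *Il12b*, had -0.39 (SE 0.11, edgeR adjusted p = 0.0925). Neither was called. *Irf8* was called with DESeq2 size factors in edgeR (adjusted p = 0.0488), without a filter, with either replicate block and without 4 of the 8 libraries in turn (adjusted p from 0.0173 to 0.0455). Its value ran from -1.47 without *Ncoa6*-KO library 1 to -0.61 without *Ncoa6*-sufficient library 1, both with LPS + MSU. With medium, 1 of the 17 was called lower, *Nfkbid*, which encodes the nuclear IκB protein IκBNS (418.8 and 458.5 against 251.7 and 275.7 normalized counts, log2 fold change -0.74, SE 0.13, edgeR adjusted p = 0.0227), a call lost without any 1 of the 4 medium libraries (adjusted p from 0.0626 to 0.142). The median log2 fold change of the 17 was -0.15 with LPS + MSU and -0.31 with medium, beside 0.0004 and -0.03 over all genes.

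The receptor chains gave 1 edgeR call with LPS + MSU, a lower one, beside 1.63% of all genes called lower. *Il12rb1*, the chain shared by the IL-12 and IL-23 receptors, had 701 and 431 normalized counts in *Ncoa6*-sufficient and 294 and 155 in *Ncoa6*-KO BMDMs after stimulation (log2 fold change -1.33, SE 0.30, edgeR adjusted p = 0.0387). The groups did not overlap, and the call was lost without *Ncoa6*-sufficient library 1 or 2 in medium, *Ncoa6*-sufficient library 1 with LPS + MSU or *Ncoa6*-KO library 2 with LPS + MSU, and with the LPS + MSU libraries alone. *Il23r*, its partner in the IL-23 receptor, was not called (147 and 74.4 against 73.2 and 32.2, log2 fold change -1.06, SE 0.47, edgeR adjusted p = 0.281). Of 9 tested genes of the IL-6 family, 0 were called and 2 had an unadjusted p under 0.05 by edgeR, beside 3062 of all 17625 genes. *Il6ra*, the IL-6 receptor chain, had 269 and 209 against 137 and 123 (-0.87, SE 0.26, edgeR adjusted p = 0.104). Of 3 tested genes of the IL-10 family, *Il10rb* among them, 0 were called (1 at an unadjusted p under 0.05), and *Il19*, an IL-10 relative, had 47.1 and 22.0 against 10.5 and 14.0 (-1.49, SE 0.58, edgeR adjusted p = 0.218). Of 9 genes for JAKs, STATs and SOCS proteins, 0 were called (2 at an unadjusted p under 0.05), and *Stat3* itself had a log2 fold change of -0.55 (SE 0.17, edgeR adjusted p = 0.107). In all, 9 of the 60 pathway genes were called lower and 1 higher with LPS + MSU, and 2 lower and 0 higher with medium, where 1.3% of all genes were called lower. DESeq2 called 15 and 5, with *Dusp1*, *Nfkbiz*, *Stat3* and *Il6ra* among the 15, where it called 6.44% of all genes with LPS + MSU and 3.97% with medium. Fewer pathway genes were called by edgeR without *Ncoa6*-sufficient library 1 or *Ncoa6*-KO library 2 with LPS + MSU. Calls over all genes fell in the same fits. The count of 2 with medium fell without *Ncoa6*-sufficient library 1, *Ncoa6*-sufficient library 2 or *Ncoa6*-KO library 2 in medium. It rose without *Ncoa6*-KO library 1, and calls over all genes moved the same way each time. No pathway gene was called for a difference in response by edgeR, and limma-voom called 0. Of the 60, 12 had an unadjusted p under 0.05 by edgeR for this difference, beside 1045 of all 17625 genes.

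The genes most like each member over the 8 libraries were found by the root mean square (RMS) difference of log2 normalized counts, each gene centred on its own mean, among 11219 genes with a mean of at least 50. *Il6* and *Il12b* were each other's nearest gene (RMS 0.57), with *Ptgs2*, which encodes the inducible cyclooxygenase, next for both (0.73 and 0.64). *Il10* lay nearest to *Il12rb1* (0.36) and *Gm6553* (0.43). *Il27* lay nearest to *Cd69* (0.23) and *Ccl5* (0.35), *Ebi3* to *Slc31a2* (0.09) and *Arel1* (0.10), and *Il10ra* to *Marcks* and *Gsdmd* (0.14 each). The low *Il12a* was nearest to *Mcmdc2* and *Gm19026* (0.22 and 0.24) and *Il23a* to *9430034N14Rik* and *Mmp28* (0.42 each). The response to LPS + MSU dominates this measure, and no test was attached to it.

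**Figure D5:**
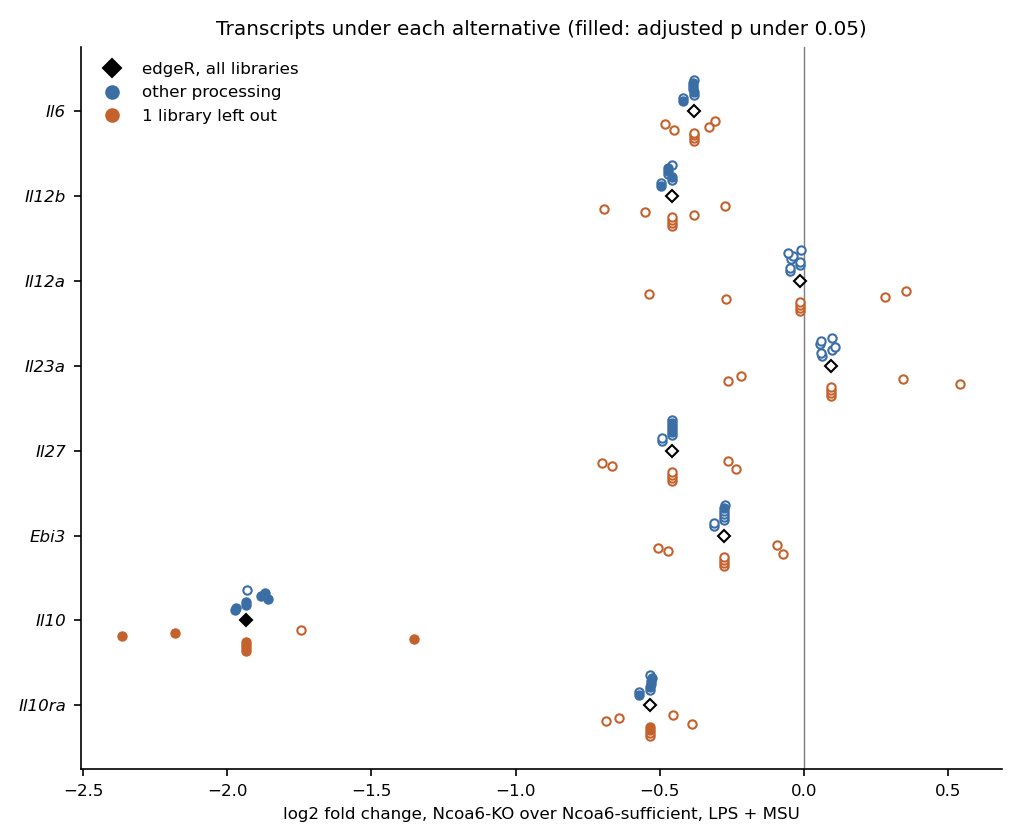
Log2 fold change of each gene with LPS + MSU, *Ncoa6*-KO over *Ncoa6*-sufficient, in the edgeR fit of all libraries (black diamonds), under other processing (blue) and with 1 library left out (orange); filled symbols have an adjusted p under 0.05. *Il10* stays between -2.36 and -1.35, *Il12a* and *Il23a* scatter to both sides of 0, and the other 5 genes stay below 0.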

How the data were processed

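RNA-seq libraries of 4 groups with 2 libraries each were analysed, with groups taken from the sample labels. Per the study's methods and the submitters' processing notes, reads were aligned with STAR 2.7.3a and quantified with RSEM 1.3.3 on GRCm38. The deposited values are expected counts per gene, unnormalized, which were rounded to whole numbers here. Symbols came from a name table that matched 50295 of 50615 gene IDs. Genes with at least 10 counts summed over the 8 libraries were kept (17625, all 8 members among them).

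All 4 groups were fitted together with edgeR 4.0.16 (TMM factors, quasi-likelihood F-test, R 4.3.3) with Benjamini-Hochberg adjustment over all genes, and SEs were taken from the F statistic. Replicates of a group differed by more than sampling noise. The alternatives were DESeq2 1.42.0, limma-voom 3.58.1, other size factors, other low-count filters, a replicate block, only the libraries compared, and each library left out. The fit was tested on simulated data, where a log2 change of 1 was recovered for 90.7% of changed genes with medium and 87.2% with LPS + MSU. In the real libraries, a change of about this size was called for *Maf* with LPS + MSU. It was not called for *Il10* with medium or for *Irf8* and *Il23r* with LPS + MSU. A gene that was not called is therefore not shown to be unchanged.

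The members and gene lists were chosen with earlier results of these data known. The named genes are all members, every pathway gene called in a knockout comparison, up to 2 others per list as examples, the 2 genes most like each member, and *Ncoa6*. *Ddit4* was named in addition so that all 9 targets are accounted for, and *Fcgr1*, *Itgam*, *Lyz2*, *Cd14* and *Csf1r* as macrophage markers and *Ighm* and *Cd79b* as B cell markers. *Cd4* and *Kit* were named as markers of T and NK cells and of mast cells and basophils. These additions were chosen after their values were seen.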

Additional observations from a re-analysis of the deposited data

How the results depend on the processing

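With LPS + MSU, *Il10* was lower in *Ncoa6*-KO BMDMs under all alternatives run, at log2 values from -1.97 to -1.86 under other processing and from -2.36 to -1.35 with a library left out. The number of the 8 genes called was 1. It became 4 with DESeq2, 5 without a low-count filter and 0 with only the libraries compared, where 6.44%, 6.54% and 0.789% of all genes were called against 3.59%, and 0 to 2 with a library left out. With medium the 0 called became 2 without a filter, where 4.67% of all genes were called against 1.88%, and 0 to 1 with a library left out. Of the pathway genes, the 2 called with medium became 5 with DESeq2, 14 without a filter and 0 to 6 with a library left out, and the 10 called with LPS + MSU became 20 without a filter, 2 with only the libraries compared and 0 to 13 with a library left out. For the difference in response the 0 called became 1 with DESeq2 and 7 without a filter, where 0.412% and 1.09% of all genes were called against 0%. In both knockout comparisons, the number of calls over all genes also changed with each library left out. The IL-10 and STAT3 targets were examined under these alternatives after seeing the data: the 6 called with LPS + MSU became 0 with only the libraries compared and 0 to 7 with a library left out, the 1 called with medium became 5 without a filter, 0 with limma-voom and 0 to 1 with a library left out, and the 0 called for the difference in response became 1 without a filter. With a library left out, the log2 fold change with LPS + MSU ran from -0.54 to 0.35 for *Il12a*, reversed at 0.28 and 0.35, and from -0.26 to 0.54 for *Il23a*, reversed at -0.26 and -0.22. The cause of these changes was not tested. *Il23a* was too low to be tested with edgeR's own filter, and where a library was left out the lone one of its group was assumed to vary like the other groups.

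No source says that equal replicate numbers share a mouse, and with 2 pairs per comparison a pairing cannot be established: the deviations of same-numbered libraries correlated at 0.04 to 0.35 over 11219 genes. With a replicate block across all groups, 1 and 5 of the 8 genes were called with medium and LPS + MSU, 10 and 19 pathway genes, 4 pathway genes for the difference in response, and 3 of the targets with medium. Over all genes that block called 5.80%, 8.69% and 0.488% with medium, with LPS + MSU and for the difference in response. With a block within each genotype these were 3 and 6 genes, 19 and 23 pathway genes, 10 pathway genes for the difference in response, and 5 targets with medium and 3 for the difference in response, and over all genes 10.7%, 14.7% and 2.52%. The larger counts under either block thus went with more calls over all genes. With 2 libraries per group, the low counts of *Il12a* and *Il23a* limit what can be seen. The p-values of the main fit rest on a spread estimated over the 4 groups together, each with only 2 libraries.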
